A study of Mus musculus with 32 samples.

Results

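The comparison described here set GFAP-IL6 against wild-type (WT) frontal cortex in libraries whose reverse transcription started from 1 ng of total RNA. Its members were the 8 libraries that the sample titles place at 1 ng, 4 of each genotype, out of 32 libraries with inputs from 0.5 to 50 ng. All mice were on the C57BL/6 strain and 3 months of age, and the labels give no treatment. GFAP-IL6 mice were homozygous for a transgene that expresses interleukin 6 from the promoter of Gfap, a gene of astrocytes, and WT mice were the controls. The labels do not say whether each library came from a separate animal, so p-values measure the spread between these libraries only. The paper names 3 mice of each genotype for its comparison with TruSeq and gives no animal number for the low-input libraries. In 3'Pool-seq the samples are indexed during oligo-dT primed reverse transcription and pooled right after it, so the reads come from the 3' ends of transcripts. The comparison asks which genotype effects, in single genes and in summed gene lists, were still visible at 1 ng.

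Interleukin 6 is a cytokine that signals through gp130 and the JAK-STAT pathway, with STAT3 as the main transcription factor. In brain, chronic interleukin 6 is known to activate microglia, the resident macrophages, and to turn astrocytes reactive. Activated microglia express complement C1q, cathepsins and chemokines, and reactive astrocytes express intermediate filaments such as GFAP.

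The 4 WT libraries held 1527603, 366403, 1245083 and 2446482 counts and the 4 GFAP-IL6 libraries 1387847, 261378, 1794069 and 2800270. Total count did not separate the genotypes (difference of means 164498 counts, two-sided exact permutation p = 0.743, n = 4 and 4; the smallest p this design allows is 0.0286). A gene was called detected above 1 CPM (counts scaled to a common library total of 1e+06), and 11101 ± 699 genes were detected in WT against 11221 ± 1134 in GFAP-IL6 (SD, n = 4 and 4; exact permutation p = 0.8286). Levels below are CPM scaled with TMM factors, without length correction. The smallest share taken as measurable, 3 counts of the total, lay between 1.07 and 11.5 CPM, with the highest values in the 2 replicate 2 libraries. These floors cover counting error only, since the libraries had no molecular identifiers.

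The tissue label was checked against defining markers. The neuronal genes Snap25 (3038 to 4129 CPM over the 8 libraries) and Syt1 (1334 to 1917 CPM) and the astrocyte gene Slc1a2 (675 to 1384 CPM) were high in every library. The T cell gene Cd3e, the B cell gene Cd79a and the striatal gene Drd2 had no count in any library. Other members of their lists were counted, so these zeros do not show that such tissue or cells were absent. The striatal list summed to 246 to 427 CPM in WT and to 238 to 373 CPM in GFAP-IL6, with Ppp1r1b at 23.7% of the sum. The lymphocyte list lay between 124 and 236 CPM over the 8 libraries. Ttr, the main product of choroid plexus, was at 2874 CPM in WT replicate 3 and between 27.8 and 115 CPM in the other 3 WT libraries. It lay between 41.0 and 232 CPM in GFAP-IL6.

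The genotype labels were checked with Il6, Gfap and C4b. Il6 (mouse genome GRCm38, chr5:30013114-30019981) had 0, 0, 13 and 0 counts in WT and 27, 0, 0 and 10 counts in GFAP-IL6, that is 9.75 CPM in WT replicate 3 and 19.7, 0, 0 and 3.63 CPM in GFAP-IL6. The libraries labelled WT replicate 3 and GFAP-IL6 replicate 3 thus stood opposite to their labels in Il6, and the gene failed the count filter. The sources used here do not state whether transcripts of the transgene would be counted as Il6 at their 3' end. In the 10 ng libraries Il6 was at 0.416, 0, 0.719 and 0 CPM in WT and at 10.2, 1.90, 5.02 and 2.03 CPM in GFAP-IL6. C4b, complement component 4, was at 0, 5.73, 0.750 and 0 CPM in WT and at 21.9, 58.0, 45.1 and 32.3 CPM in GFAP-IL6 at 1 ng. Each library lay on the side of its label in C4b. Gfap was at 12.6, 8.59, 21.0 and 8.42 CPM in WT and at 42.4, 77.3, 57.7 and 11.97 CPM in GFAP-IL6. The genotypes overlapped in Gfap through GFAP-IL6 replicate 4, which lay under WT replicates 1 and 3.

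Cathepsin S, a secretoglobin and a monocyte chemokine rose in GFAP-IL6 cortex at 1 ng. Genes were called differentially expressed (DEGs) when edgeR's quasi-likelihood test gave an adjusted p (Benjamini-Hochberg) under 0.05 and the log2 fold change exceeded 1 in size. Of 9276 genes that passed the count filter, 3 were DEGs (0.0323% of those tested), and all 3 were higher in GFAP-IL6. At an unadjusted p under 0.05 there were 333 genes (3.59%). The lowest GFAP-IL6 value exceeded the highest WT value in 147 genes (1.58%), and the reverse held in 141 genes (1.52%). Over all tested genes the median log2 fold change was -0.0065.

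Ctss encodes cathepsin S, a lysosomal protease of microglia and other antigen-presenting cells (chr3:95526786-95556403). It was at 145, 172, 193 and 189 CPM in WT and at 689, 684, 689 and 462 CPM in GFAP-IL6. The lowest GFAP-IL6 library, replicate 4, was well above every WT library. The log2 fold change was 1.85 ± 0.19 (SE), with an edgeR adjusted p of 2.52e-05.

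Scgb3a1 encodes a small secreted secretoglobin (chr11:49663610-49665118). Its levels were 2.65, 0, 6.75 and 0.842 CPM in WT and 65.8, 124, 81.3 and 104 CPM in GFAP-IL6. WT was near the counting floor throughout, while every GFAP-IL6 library was above 60 CPM. The log2 fold change was 4.99 ± 0.62 (SE; edgeR adjusted p = 0.000288), and the 95% interval ran from 3.70 to 6.28. With limma voom and sample weights Scgb3a1 was no longer called.

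Ccl12 encodes a chemokine that attracts monocytes through CCR2 (chr11:82101845-82103400). It was at 5.30, 20.05, 14.996 and 3.79 CPM in WT and at 85.5, 61.9, 164 and 134 CPM in GFAP-IL6. The groups did not overlap, and the log2 fold change was 3.58 ± 0.52 (SE; edgeR adjusted p = 0.00236). Because only uniquely aligned reads were counted, values of Ccl12 and its neighbouring paralog Ccl8 are uncertain. Without both replicate 3 libraries the DEGs were Ctss and Scgb3a1, 2 in all, and Ccl12 had a log2 fold change of 3.69 with an edgeR adjusted p of 0.0509. The call was also lost without GFAP-IL6 replicate 3 alone.

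The sequences before the transcription start of these 3 genes are shown because the lists include targets of STAT and interferon signalling. They are the 250 bases upstream of the RefSeq start in GRCm38.p6, all on the plus strand, at chr3:95526536-95526785 for Ctss, chr11:49663345-49663594 for Scgb3a1 and chr11:82101595-82101844 for Ccl12. Capitals mark matches on either strand to the STAT site TTCNNNGAA, the interferon-stimulated response element core GAAANNGAAA and the PU.1 core GAGGAA.
Ctss: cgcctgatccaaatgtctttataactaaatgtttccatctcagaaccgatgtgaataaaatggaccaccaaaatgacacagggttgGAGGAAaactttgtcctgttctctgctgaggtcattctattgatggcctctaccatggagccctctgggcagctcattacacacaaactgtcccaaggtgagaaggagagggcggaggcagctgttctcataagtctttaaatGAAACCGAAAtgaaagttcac
Scgb3a1: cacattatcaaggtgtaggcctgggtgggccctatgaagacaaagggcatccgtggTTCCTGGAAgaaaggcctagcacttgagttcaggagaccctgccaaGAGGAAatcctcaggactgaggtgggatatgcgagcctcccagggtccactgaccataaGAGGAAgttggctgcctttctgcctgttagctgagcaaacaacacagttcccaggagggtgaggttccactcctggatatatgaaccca
Ccl12: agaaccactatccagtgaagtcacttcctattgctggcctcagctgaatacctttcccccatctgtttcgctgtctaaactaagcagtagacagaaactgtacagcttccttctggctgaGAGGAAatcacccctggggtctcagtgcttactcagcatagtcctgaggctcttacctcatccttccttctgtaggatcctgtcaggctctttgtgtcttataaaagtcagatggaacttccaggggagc
The interferon core lay 21 bases before the start of Ctss and the STAT site 194 bases before that of Scgb3a1. The PU.1 core occurred in all 3 windows, at 164 bases in Ctss, at 148 and 89 bases in Scgb3a1 and at 130 bases in Ccl12. Of 32851 promoter windows of the same length, 7.02% held the STAT site, 2.98% the interferon core and 23.3% the PU.1 core. A match is a description of the letters only.

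The values of 6 further immune genes did not overlap between the genotypes but missed the DEG threshold in edgeR. The DESeq2 test called all 6, with adjusted p-values of 0.0326 for C1qc, 0.00365 for Ifi30 and 0.000689 for Ifitm3 and Lrg1. Without a filter on low counts edgeR called C1qb, C4b, Ifitm3 and Lrg1. C1qb, a chain of the complement initiator C1q (chr4:136880129-136886187), was at 96.7, 51.5, 79.5 and 108 CPM in WT and at 293, 232, 254 and 157 CPM in GFAP-IL6. Its log2 fold change was 1.44 ± 0.27 (SE) with an edgeR adjusted p of 0.05004, so the call turned on the setting, and 5 of the alternatives called it. C1qc, the gene of another C1q chain (chr4:136889804-136893065), was at 88.7, 103, 76.5 and 75.3 CPM in WT and at 212, 147, 190 and 152 CPM in GFAP-IL6. The difference of 1.06 on the log2 scale had an edgeR adjusted p of 0.380.

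Ifitm3, an interferon-induced membrane protein that restricts virus entry (chr7:141009586-141010770), was at 25.2, 48.7, 33.0 and 57.2 CPM in WT and at 180, 104, 129 and 126 CPM in GFAP-IL6. Its log2 fold change was 1.74 ± 0.34 (SE; edgeR adjusted p = 0.0697). Lrg1, a secreted glycoprotein of the acute phase response (chr17:56119678-56122001), was at 18.5, 0, 13.5 and 0.421 CPM in WT and at 68.0, 88.9, 128 and 73.6 CPM in GFAP-IL6. The spread within WT was as wide as from 0 to 18.5 CPM, and the edgeR adjusted p was 0.0987 for a log2 fold change of 3.32.

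C4b (chr17:34728380-34743882) rested on 3 counts in all of WT against 220 in GFAP-IL6. The ratio of pooled levels was 64.9, with an exact 95% counting interval of 21.9 to 317, and the edgeR adjusted p was 0.0697. Reads shared with close copies of C4b would not have been counted. Ifi30, a lysosomal thiol reductase of antigen processing (chr8:70762774-70766663), had 2 counts in WT and 104 in GFAP-IL6. Its pooled ratio was 46.0 with a counting interval of 12.4 to 385, and it missed the threshold (edgeR adjusted p = 0.334). Both counting intervals leave out the spread between libraries, so they are too narrow as limits on the genotype effect. The log2 fold changes at 1 and 50 ng were 5.61 and 2.66 for C4b and 5.66 and 1.73 for Ifi30. Without both replicate 2 libraries C4b was a DEG (edgeR adjusted p = 0.0484) and the DEG count was 5, the others being Ctss, Ccl12, Scgb3a1 and Tmem176a, a gene outside the naming rule that was named after its result was seen.

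**Figure D1:**
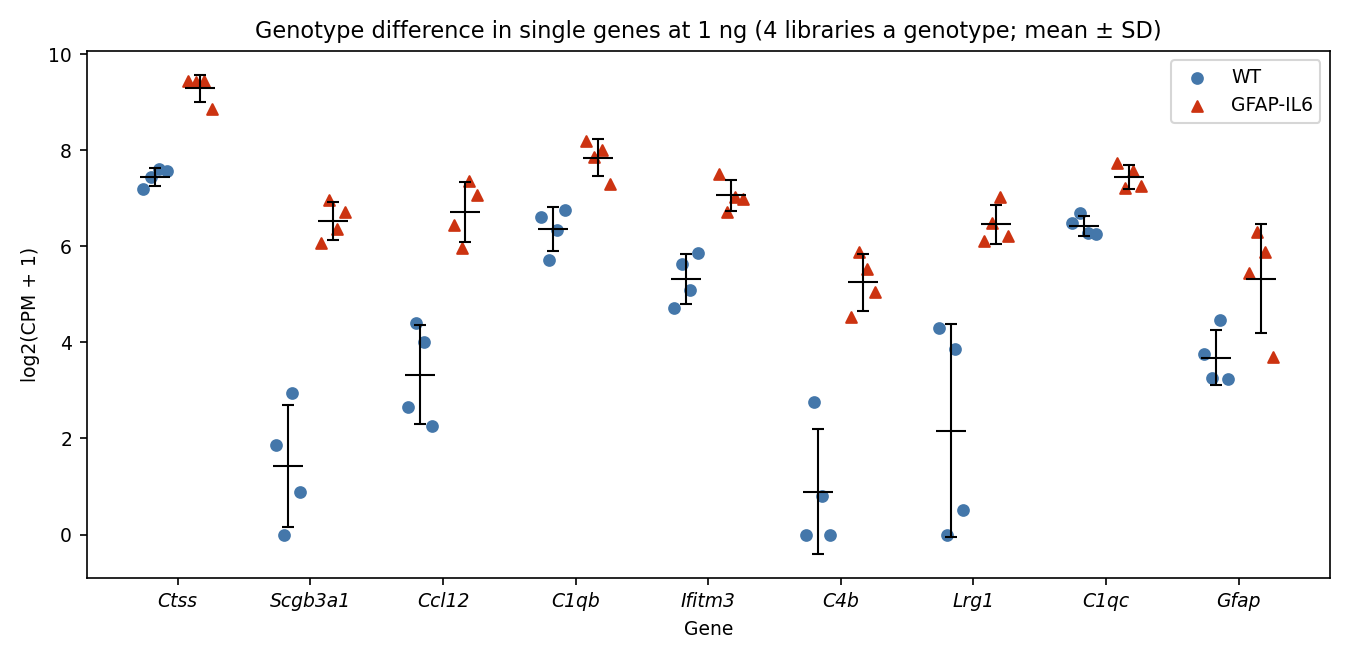
Level of 9 genes in each 1 ng library as log2(CPM + 1), with WT as blue circles, GFAP-IL6 as red triangles, and black bars for the mean ± SD of 4 libraries. Every gene but Gfap has no overlap between the genotypes, and Ctss runs from 145 to 193 CPM in WT and from 462 to 689 CPM in GFAP-IL6.

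The 3 DEGs and 6 genes above were among the 20 genes with the lowest p at 1 ng whose genotypes did not overlap. Of the 20, 15 were higher in GFAP-IL6 and 5 were lower. The other 11 were not DEGs, and 10 of them are described. They included P4ha1, a collagen prolyl hydroxylase subunit (WT 20.2 to 43.7 CPM, GFAP-IL6 59.9 to 120 CPM), Pfkfb3, a regulator of glycolysis (0 to 7.95 and 11.6 to 49.0 CPM), Grin3a, an NMDA receptor subunit (0.662 to 8.997 and 15.5 to 49.8 CPM), and Hdac9, a histone deacetylase (2.95 to 20.05 and 36.3 to 64.0 CPM). Ly6c1, a surface protein of endothelial cells and monocytes, was at 27.7 to 84.1 CPM in WT and at 92.9 to 176 CPM in GFAP-IL6.

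On the lower side, Lancl1, a glutathione-binding protein, was at 169 to 319 CPM in WT and at 99.4 to 151 CPM in GFAP-IL6. Armc1 was at 169 to 234 CPM in WT and at 77.5 to 152 CPM in GFAP-IL6, and Msl2, a ubiquitin ligase of the MSL complex, at 37.2 to 67.5 and 11.5 to 19.3 CPM. Kti12, a partner of the Elongator complex, was at 9.75 to 32.8 CPM in WT and at 0 to 3.63 CPM in GFAP-IL6, and 4931406P16Rik at 12.6 to 100 and 0 to 3.66 CPM. The edgeR adjusted p of these 10 genes lay between 0.601 and 0.997, and the DESeq2 test called 4931406P16Rik among them.

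The 20 genes were chosen on their 1 ng values, and their values in the 10 and 50 ng libraries fell into 2 kinds. Separate libraries were made at each input, but the labels do not say whether same-numbered libraries held the same RNA. The choroid plexus list stood high in WT replicate 3 at each input (3209, 3266 and 3704 CPM at 1, 10 and 50 ng, against at most 398 CPM in the other WT libraries), and deviations of same-numbered 1 and 10 ng libraries had correlations across genes of 0.047 to 0.226. Values at the other inputs are therefore given side by side and not as independent replication. At 10 ng, 32 of 12043 genes were DEGs (0.266%) and 901 had an unadjusted p under 0.05 (7.48%). At 50 ng there were 33 DEGs of 11773 genes (0.28%), and 663 genes had an unadjusted p under 0.05 (5.63%). Of the 20 genes, 8 were DEGs at 10 ng and 9 at 50 ng, and 10 had an unadjusted p under 0.05 at each of these inputs.

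The immune genes stayed higher in GFAP-IL6, and most had their largest value at 1 ng, the input they were chosen on. Log2 fold changes at 1, 10 and 50 ng were 1.85, 1.75 and 1.495 for Ctss. They were 3.58, 3.35 and 3.29 for Ccl12 and 1.06, 1.12 and 1.04 for C1qc. C1qb had 1.44, 1.11 and 1.10, Ifitm3 1.74, 1.08 and 1.17, and Lrg1 3.32, 1.98 and 2.13. Ifi30 went from 5.66 at 1 ng to 1.73 at 50 ng. For Scgb3a1 they were 4.99, 3.47 and 3.52, and for C4b 5.61, 2.76 and 2.66. These last genes had WT levels near 0 at 1 ng but not at 10 ng, where WT libraries held 3.66 to 11.9 CPM of Scgb3a1.

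Of the other 10 genes described, all but Ly6c1 had log2 fold changes between -0.30 and 0.46 at 10 ng and between -0.27 and 0.42 at 50 ng. Kti12 went from -3.68 at 1 ng to -0.13 at 10 ng and -0.26 at 50 ng on the log2 scale. Those of 4931406P16Rik were -3.61, 0.21 and 0.20, and those of Hdac9 2.24, 0.15 and -0.02. At 10 ng Kti12 was at 11.5 to 34.2 CPM in WT and at 12.8 to 20.9 CPM in GFAP-IL6, so the genotypes overlapped. Ly6c1 stood between the kinds with 1.15, 0.58 and 0.46.

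The difference between the genotype effect at 1 ng and at 10 ng was tested as an interaction term in the 16 libraries of both inputs. No gene of 11343 passed an edgeR adjusted p under 0.05, 480 had an unadjusted p under 0.05, and limma voom passed 0 as well, with 510. For 4931406P16Rik the interaction was -3.66 on the log2 scale (unadjusted p = 0.000473, edgeR adjusted p = 0.870) and for Kti12 -3.50 (unadjusted p = 0.00064, edgeR adjusted p = 0.870). For Ctss it was 0.08 (edgeR adjusted p = 0.999). In this fit a difference between the inputs was therefore not shown for any single gene.

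**Figure D2:**
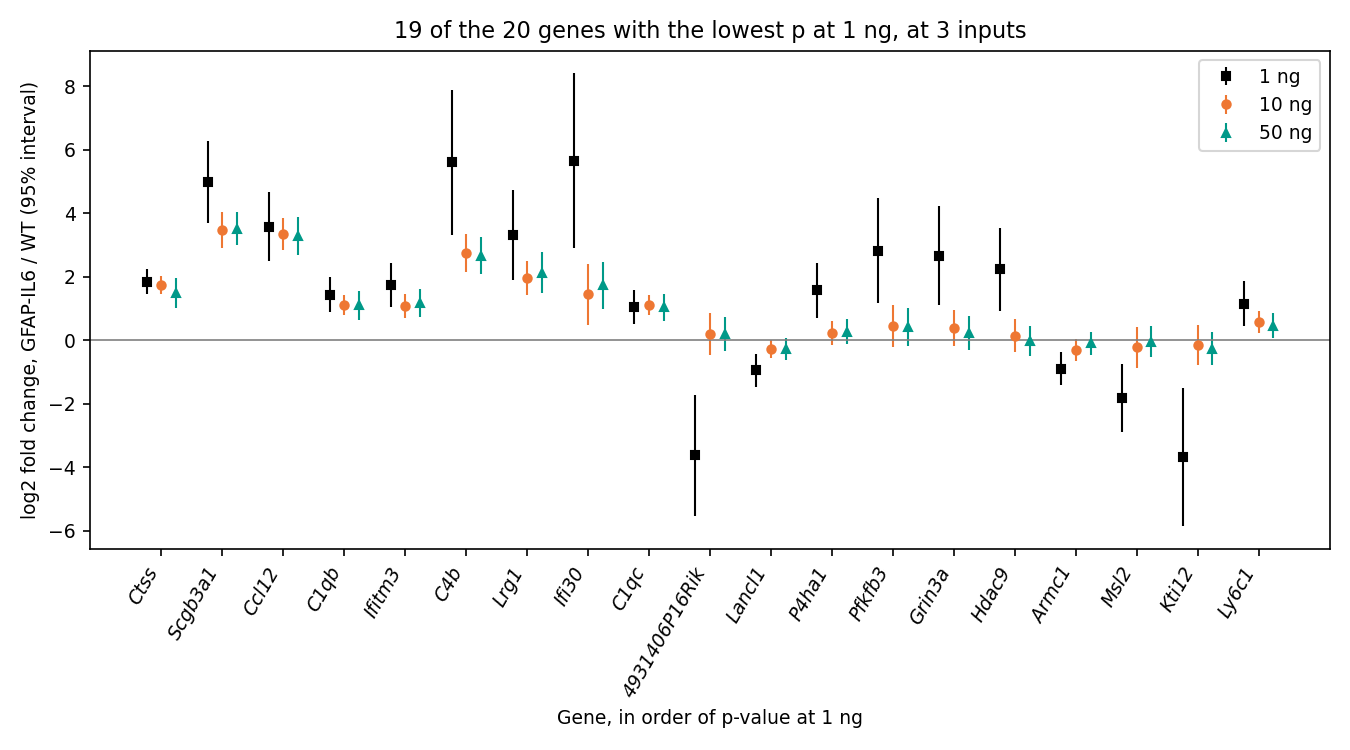
Log2 fold change of GFAP-IL6 over WT with its 95% interval at 1 ng (black squares), 10 ng (orange circles) and 50 ng (green triangles) for 19 of the 20 genes with the lowest p at 1 ng among those without overlap. The first 9 genes lie above 0 at every input, whereas Hdac9 goes from 2.24 at 1 ng to 0.15 at 10 ng and Kti12 from -3.68 to -0.13.

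The DEGs of the higher inputs were then looked up at 1 ng. Of the 32 DEGs at 10 ng, 24 passed the count filter at 1 ng, 3 were DEGs there and 13 had an unadjusted p under 0.05, beside the 3.59% of all genes. Their median log2 fold change was 1.55 at 10 ng and 1.42 at 1 ng, while the median SE was 0.258 and 0.616. The 95% interval at 1 ng held the 10 ng value in 19 of the 24 genes and held 0 in 11. Of the 33 DEGs at 50 ng, 20 were tested at 1 ng, and the medians over these were 1.52 at 50 ng and 1.70 at 1 ng. The medians at 1 ng leave out the 8 and 13 DEGs that failed the count filter there, and genes such as C4b and Scgb3a1 passed it through GFAP-IL6 alone, so they do not describe all the DEGs.

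Among the DEGs of lowest p at the higher inputs, Ccl8 and Fam187a were not tested at 1 ng. Ccl8, another monocyte chemokine, was at 0, 0, 6.75 and 0 CPM in WT and at 0, 27.1, 18.4 and 5.80 CPM in GFAP-IL6, and its log2 fold change at 10 ng was 3.80. Fam187a was at 0, 0, 0.750 and 0.421 CPM in WT and at 0, 7.73, 7.34 and 17.8 CPM in GFAP-IL6. Both had a GFAP-IL6 library at 0. Gfap, with a log2 fold change of 2.49 at 10 ng (edgeR adjusted p = 4e-07), had 1.83 ± 0.63 (SE) at 1 ng with an edgeR adjusted p of 0.997.

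The other immune DEGs described here were also higher in GFAP-IL6 at 1 ng, with a wide error. Fcgr2b, an inhibitory Fc receptor, differed by 1.39 ± 0.82 (SE) at 1 ng and 1.78 at 10 ng on the log2 scale. Its levels were 5.30, 28.6, 11.2 and 2.53 CPM in WT and 55.6, 11.6, 28.3 and 12.7 CPM in GFAP-IL6, and the ranges overlapped. Itgam, the CD11b integrin chain, had 1.35 at 1 ng and 2.26 at 50 ng, and Pycard, the inflammasome adaptor, 1.70 at 1 ng and 1.66 at 10 ng. Ly86, a partner of the Toll-like receptor relative CD180, was at 53.0, 83.0, 31.5 and 71.1 CPM in WT and at 106, 155, 100 and 91.4 CPM in GFAP-IL6. Its groups did not overlap, but the edgeR adjusted p was 0.997 for a log2 fold change of 0.92.

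The width of the genotype interval depended on the level of the gene. Over the genes tested at all 3 inputs, the median 95% interval at 1 ng reached a factor of 4.72 on either side for the 734 genes under 10 CPM. The factor was 3.14 for the 3452 genes from 10 to 30 CPM, 1.91 for 3270 genes from 30 to 100 CPM and 1.46 for 1327 genes from 100 to 300 CPM. For the 483 genes at 300 CPM or more it was 1.29. The corresponding factors at 10 ng were 1.73, 1.49, 1.32, 1.24 and 1.20. The 1 ng interval was thus wider than the 10 ng interval at every level, and least so at 300 CPM or more. There the median half-width on the log2 scale was 0.369 at 1 ng and 0.268 at 10 ng. Under 10 CPM it was 2.24 and 0.789.

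**Figure D3:**
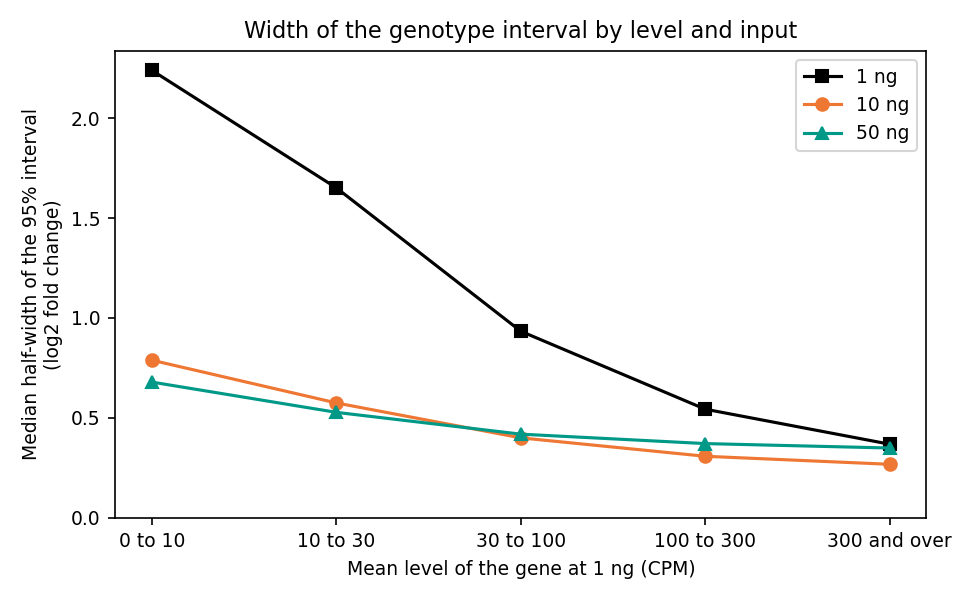
Median half-width of the 95% interval of the log2 fold change (vertical axis) against the mean level of the gene at 1 ng in CPM (horizontal axis), for 1, 10 and 50 ng. The 1 ng line falls from 2.24 under 10 CPM to 0.37 at 300 CPM and over, where the 10 ng line is at 0.27.

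Genes of low level also dropped to 0 counts more often at 1 ng than counting alone gives. The count expected of each gene was taken from its mean CPM in the 10 ng libraries of the same genotype and the total of the 1 ng library. Among genes expected at 3 to 10 counts, 16.5% to 44.4% had 0 counts in a 1 ng library (median 37.3%), where Poisson counting gives 0.944% to 1.04%. In the 50 ng libraries the share was 3.67% to 11.5%. Among genes expected at 10 to 30 counts it was 0.977% to 11.1% at 1 ng and at most 0.464% at 50 ng. No gene expected at 100 counts or more was at 0 in any 1 ng library.

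The higher inputs were also thinned, to set the inputs side by side at like totals. With the 10 ng libraries thinned to the totals of the same-named 1 ng libraries, 21 to 32 DEGs were called in 10 draws. In the 50 ng libraries 15 to 23 were called, with a median of 16.5. The 1 ng libraries gave 3 at the same totals, and their common biological coefficient of variation was 0.519. It was 0.193 to 0.194 in the thinned 10 ng libraries and 0.210 to 0.212 in the thinned 50 ng libraries. Before thinning it was 0.238 at 10 ng and 0.214 at 50 ng. The cause of these differences was not tested.

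**Figure D4:**
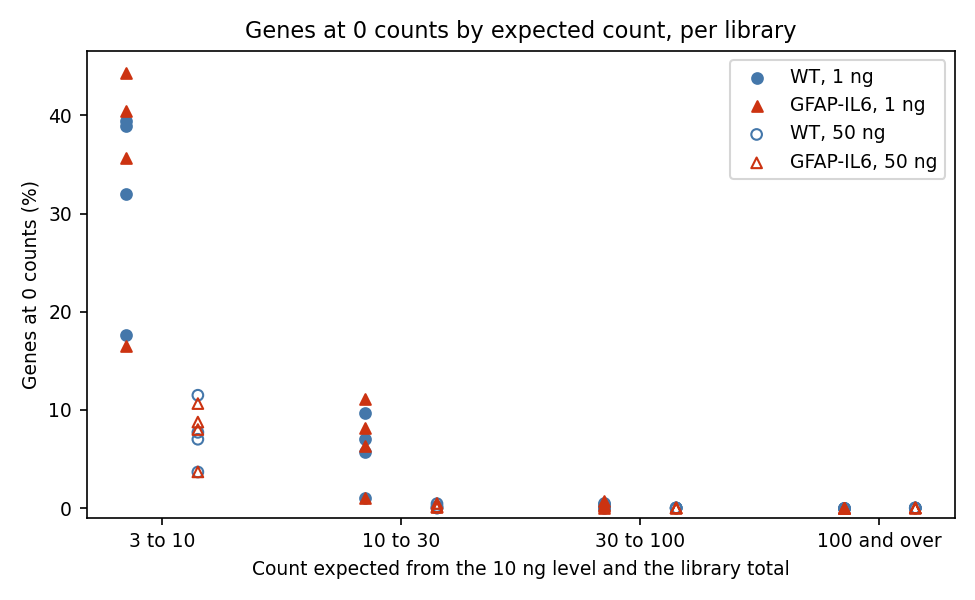
Share of genes at 0 counts in each library (vertical axis, percent) against the count expected from the 10 ng level, for 1 ng (filled) and 50 ng libraries (open), with WT as circles and GFAP-IL6 as triangles. At 3 to 10 expected counts the 1 ng libraries lie between 16.5% and 44.4% and the 50 ng libraries between 3.67% and 11.5%.

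Summed over gene lists, the microglial, complement, chemokine, reactive astrocyte and interferon genes were higher in every GFAP-IL6 library than in any WT library. Of 26 lists of cell classes and pathways, 6 had summed CPM that did not overlap between the genotypes at 1 ng, all higher in GFAP-IL6. At 10 ng 5 lists were above and 1 below, and at 50 ng 4 were above and 1 below. The lists held 377 genes, of which the count filter kept 223 at 1 ng, against 289 and 285 at 10 and 50 ng. The sums used every member, tested or not, and no p was attached to them. In bulk tissue, fewer cells of a type and less RNA per cell cannot be told apart. A member expressed in GFAP-IL6 alone could pass the filter through that group, so counts over tested members describe those members only.

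The myeloid activation list, made of immune receptors and their adaptors, summed to 358, 335, 478 and 413 CPM in WT and to 874, 889, 896 and 643 CPM in GFAP-IL6. The ratio of means was 2.09 at 1 ng, 2.13 at 10 ng and 2.11 at 50 ng. No member was a DEG at 1 ng, against 7 at 10 ng. Of 26 members 15 were tested, 4 had an unadjusted p under 0.05, all higher, and the median log2 fold change was 0.92. The share of all tested genes under that p, to be set beside this and the following member counts, was 3.59%.

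Its members with the lowest p were receptor adaptors and a lysosomal enzyme. Fcer1g, the Fc receptor gamma chain, was at 68.2, 100.3, 122 and 91.3 CPM in WT and at 197, 135, 208 and 137 CPM in GFAP-IL6. Tyrobp, the DAP12 adaptor of TREM2, was at 49.7, 11.5, 95.2 and 78.3 CPM in WT and at 168, 178, 101 and 127 CPM in GFAP-IL6. Lyz2, lysozyme of myeloid cells, was at 15.9, 22.9, 23.2 and 29.5 CPM in WT and at 68.7, 77.3, 76.0 and 34.1 CPM in GFAP-IL6. None overlapped, and the log2 fold changes were 0.85, 1.20 and 1.46, each with an edgeR adjusted p of 0.997.

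The complement list summed to 202, 183, 189 and 242 CPM in WT and to 595, 530, 562 and 394 CPM in GFAP-IL6. Its ratio was 2.55 at 1 ng and 2.12 and 2.13 at 10 and 50 ng. C1qb made up 43.9% of the sum. Of 16 members 6 were tested, 3 had an unadjusted p under 0.05, and the median log2 fold change was 1.25.

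The homeostatic microglia list summed to 563, 412, 493 and 513 CPM in WT and to 594, 591, 853 and 674 CPM in GFAP-IL6, a ratio of 1.37. The ratio was 1.34 at 10 ng and 1.30 at 50 ng, where the genotypes overlapped. At 1 ng the list stayed above WT without overlap in 11 of 13 settings, with ratios of 1.2004 to 1.43. The purinergic receptor P2ry12 was at 37.2 to 53.6 CPM in WT and at 15.6 to 80.8 CPM in GFAP-IL6, with a log2 fold change of 0.08 and a 95% interval from -0.96 to 1.11. Of 16 members 14 were tested, 2 had an unadjusted p under 0.05, and the median was 0.36.

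The chemokine and cytokine list summed to 644, 596, 666 and 612 CPM in WT and to 730, 858, 982 and 749 CPM in GFAP-IL6, a ratio of 1.32. Cx3cl1, a neuronal chemokine, made up 72.8% of the sum with a log2 fold change of 0.06, and without it the ratio was 2.58. At 10 ng the genotypes overlapped, with a ratio of 1.10. Ccl12 was the only DEG among the 5 tested of 20 members, and the median was 0.06.

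The reactive astrocyte list summed to 122, 74.5, 87.7 and 50.1 CPM in WT and to 156, 274, 238 and 142 CPM in GFAP-IL6. The ratio was 2.43 at 1 ng, 1.72 at 10 ng and 1.597 at 50 ng. Gfap made up 21.0% of it. Serpina3n, an acute phase protease inhibitor, was at 4.64, 5.73, 6.75 and 5.47 CPM in WT and at 27.8, 15.5, 34.1 and 7.62 CPM in GFAP-IL6. Of 18 members 7 were tested, with 2 under an unadjusted p of 0.05 and a median of 1.52.

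The interferon-stimulated list summed to 215, 198, 190 and 171 CPM in WT and to 376, 302, 358 and 302 CPM in GFAP-IL6, a ratio of 1.73. Ifitm3 held 33.3% of the sum, and without it the genotypes overlapped. Ifi27, another interferon-induced gene, was at 34.5 to 48.0 CPM in WT and at 58.0 to 68.2 CPM in GFAP-IL6. Of 24 members 9 were tested, Ifitm3 alone had an unadjusted p under 0.05, and the median log2 fold change was 0.59.

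**Figure D5:**
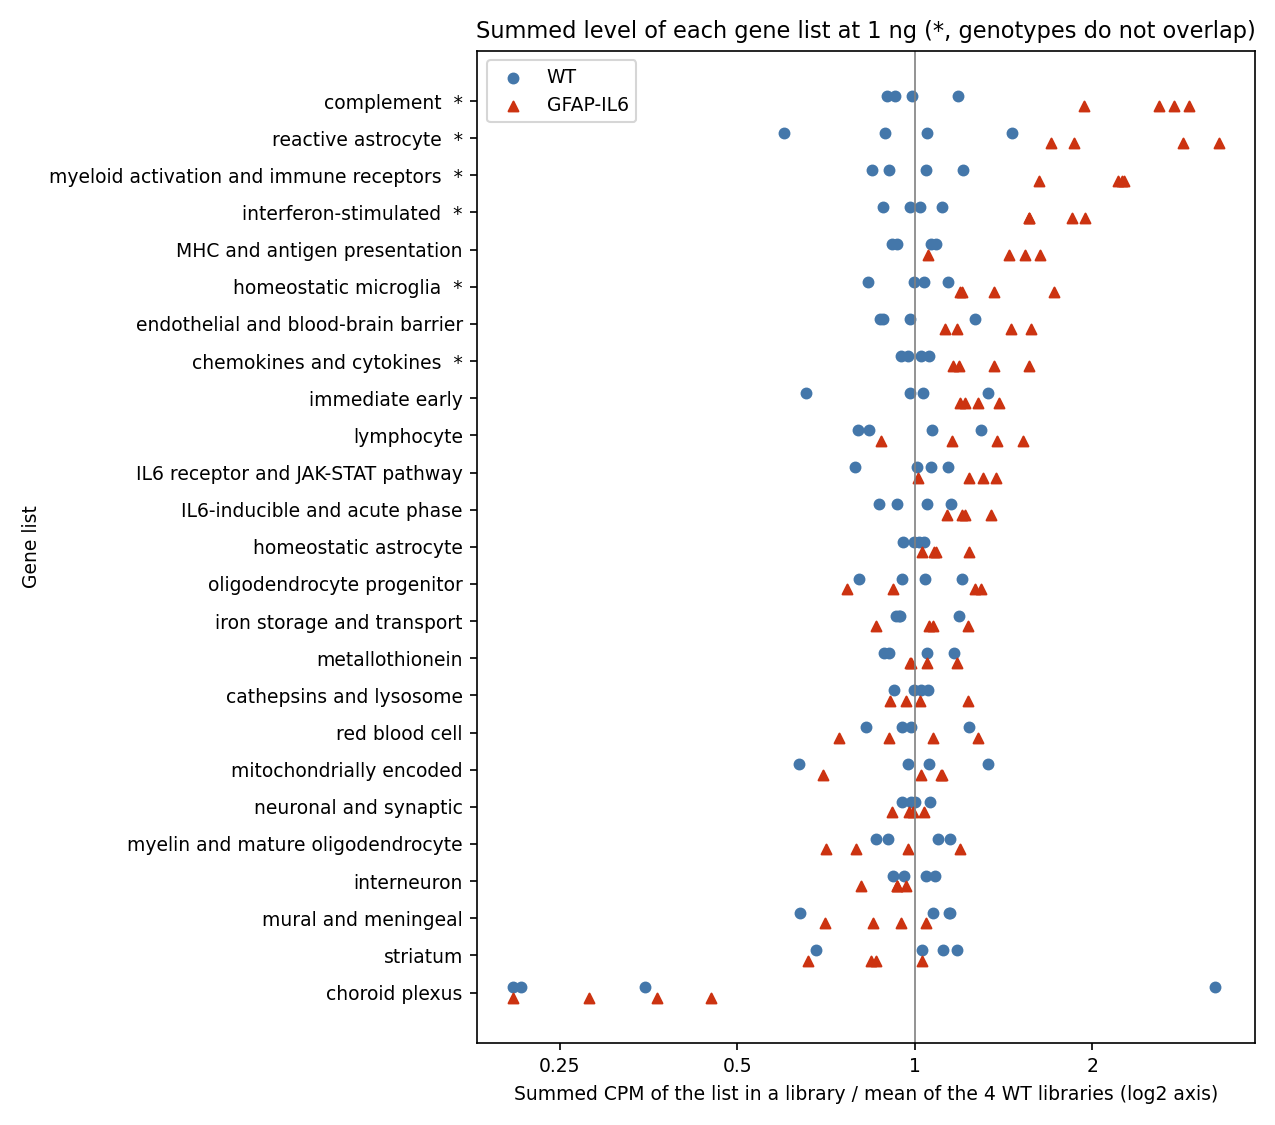
Summed CPM of 25 gene lists in each 1 ng library, divided by the mean of the 4 WT libraries, on a log2 axis, with WT as blue circles and GFAP-IL6 as red triangles. Asterisks mark the 6 lists without overlap, from complement (ratio of means 2.55) to chemokines and cytokines (1.32), and the neutrophil list is left out because WT held counts in 1 library only.

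Lists of the interleukin 6 pathway itself overlapped between the genotypes. The receptor and JAK-STAT list summed to 258 to 370 CPM in WT and to 330 to 448 CPM in GFAP-IL6, a ratio of 1.23. Stat3 was at 1.32, 11.5, 4.50 and 7.58 CPM in WT and at 30.7, 7.73, 19.4 and 26.8 CPM in GFAP-IL6, with a log2 fold change of 1.91 and a 95% interval from 0.09 to 3.73 (edgeR adjusted p = 0.997). At 10 ng its log2 fold change was 0.76. Jak1, the kinase bound to gp130, had 0.38, and Socs2, a feedback inhibitor, -0.99, neither past the test.

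The list of interleukin 6-inducible and acute phase genes had a ratio of 1.22, with metallothionein Mt1 at 64.4% of its sum. Mt1 was at 876 to 1160 CPM in WT and at 962 to 1059 CPM in GFAP-IL6, a log2 fold change of 0.06 with a 95% interval from -0.23 to 0.35. Without Mt1 the genotypes no longer overlapped, and the remaining members included Scgb3a1 and Lrg1. Scgb3a1 was placed in this list with its rise in these data known. That separation and the member counts below therefore describe the list only and are no support for it. Of 20 members 8 were tested, 3 had an unadjusted p under 0.05, and the median was 0.91.

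The cathepsin list showed the same dependence on 1 member. Cst3, the cathepsin inhibitor cystatin C, made up 72.6% of it, at 6204 to 7016 CPM in WT and 5530 to 7280 CPM in GFAP-IL6. The ratio of the list was 1.03 with Cst3 and 1.41 without it, and in the second case the genotypes did not overlap. Besides Ctss, Ctsz was at 37.2 to 46.7 CPM in WT and at 64.3 to 111 CPM in GFAP-IL6, and Ctsl at 90.7 to 149 and 158 to 202 CPM, both with an edgeR adjusted p of 0.997. Ctsb overlapped, with a log2 fold change of 0.05.

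The antigen presentation list overlapped at a ratio of 1.42, through GFAP-IL6 replicate 4. B2m, the light chain of MHC class I, made up 70.3% of it and was at 539, 415, 554 and 484 CPM in WT and at 693, 854, 736 and 588 CPM in GFAP-IL6. Its log2 fold change was 0.52 ± 0.16 (SE; edgeR adjusted p = 0.997). The class I heavy chains H2-K1 and H2-D1 had 0.48 and 0.59 with overlapping values.

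The lists of the remaining brain cells overlapped at 1 ng. The neuronal list had a ratio of 0.98, a median log2 fold change of 0.02 and no member under an unadjusted p of 0.05. The homeostatic astrocyte list had a ratio of 1.11, with Apoe at 44.8% of its sum. The myelin list had a ratio of 0.918, the progenitor list 1.06, the endothelial list 1.33 and the mural and meningeal list 0.886. Under 13 alternative settings the endothelial list was above WT without overlap in 2, with ratios of 1.21 to 1.59. The homeostatic astrocyte list was also above in 2 (ratios 0.927 to 1.13), and the mural and meningeal list was below in 2 (0.772 to 1.08). Interneuron genes had a ratio of 0.91 with overlap at 1 ng, and were below WT without overlap at 10 ng (0.88) and 50 ng (0.848). Without Cck, a neuropeptide gene at 49.0% of the sum, the list was below WT without overlap at 1 ng too (0.860), as it was in the mean of log2(CPM + 1) over members, where the difference was -0.30.

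Within the interneuron list, the neuropeptide gene Sst was at 511, 564, 545 and 497 CPM in WT and at 488, 394, 470 and 413 CPM in GFAP-IL6. It did not overlap, with a log2 fold change of -0.25 and a 95% interval from -0.59 to 0.08. Vip, another neuropeptide, was at 228, 140, 217 and 146 CPM in WT and at 110, 186, 96.5 and 106 CPM in GFAP-IL6 (log2 fold change -0.61, edgeR adjusted p = 0.997). Npy had a log2 fold change of 0.01 at 1 ng and -0.22 at 10 ng.

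Lists that mark blood and neighbouring tissue are given beside these results, and their part in them was not tested. The red blood cell list summed to 668 to 997 CPM in WT and to 601 to 1032 CPM in GFAP-IL6, a ratio of 1.001. The lymphocyte list summed to 124 to 200.5 and 136 to 236 CPM, and 6 of its 12 members had no count in any 1 ng library. Of the 8 neutrophil genes 5 had no count, and the list reached 1.68 CPM in 1 WT library and 21.5 CPM in 1 GFAP-IL6 library. The choroid plexus list summed to 207, 347, 3209 and 213 CPM in WT and to 363, 448, 278 and 207 CPM in GFAP-IL6. WT replicate 3 set its ratio of 0.326, which was 1.27 without that library. The striatal list had a ratio of 0.848, the immediate early list 1.27, the metallothionein list 1.05, the iron list 1.05 and the mitochondrially encoded genes 0.986, all with overlap.

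The 6 separated lists were recomputed without libraries that stood apart. All 6 stayed above WT without both replicate 2 libraries, when 6 lists were separated in all, and without both replicate 3 libraries, when 9 were. The 3 others in the second case were the JAK-STAT and immediate early lists, above WT, and the mural and meningeal list, below it. The myeloid, complement and chemokine lists stayed above WT in all 13 settings tried, with ratios of 1.84 to 2.24, 1.95 to 2.76 and 1.24 to 2.58.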

How the data were processed

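Frontal cortex RNA was profiled by 3'Pool-seq, and the 8 libraries at 1 ng were compared, with those at 10 and 50 ng beside them. The authors removed poly(A) stretches, used STAR 2.4 for alignment to the mouse genome, and made counts of uniquely aligned reads per gene using featureCounts. The deposited counts are whole numbers for 33000 genes, not normalized; strand use in counting is not given in the sources used here, so genes overlapping on opposite strands are uncertain. Groups came from genotype and input in the labels.

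Here, edgeR 4.0.16 (R 4.3.3) with TMM factors, filterByExpr and its quasi-likelihood test was run within each input, without covariates. Total counts at 1 ng ran from 261378 to 2800270. Alternatives used DESeq2 1.42.0, limma 3.58.1, other filters, a replicate block, thinning and left-out libraries; leaving out both replicate 3 libraries, and either pair for the lists, was chosen after seeing the data. Named genes were Il6, Gfap and C4b, the DEGs at 1 ng, the 20 genes of lowest p without overlap, in each list the 3 members of highest level and the 3 of lowest p, and the 10 DEGs of lowest p at 10 and 50 ng. Slc1a2, Cd3e, Cd79a and Drd2 were named as cell markers, and genes called only under an alternative after their results were seen. The comparison, the members and the gene lists were chosen with earlier results of these data known; Scgb3a1 in particular was placed in its list with its rise known. Coordinates are from GENCODE M21 (GRCm38). The code was tested on simulated data. Results of some genes that the rule names are not reported here.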

Additional observations from a re-analysis of the deposited data

Results flagged for a closer look

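Of 102 groups of 4 libraries checked for a library far from the other 3, 11 stood out. Some would stand out by chance. The groups share libraries, and for Il6 and Ifi30 in WT the other 3 libraries were at 0. The 11 are therefore a description and are not set against a chance rate. Ctss was lowest among GFAP-IL6 libraries at 462 CPM in replicate 4, and the myeloid activation list was lowest in the same library at 643 CPM, both still above every WT library. In WT replicate 3 the choroid plexus list was highest at 3209 CPM, the iron list highest at 11527 CPM, the mural and meningeal list lowest at 2071 CPM, Il6 highest at 9.75 CPM and Ifi30 highest at 1.4996 CPM. WT replicate 2, the WT library with the lowest total, had the highest C4b at 5.73 CPM and the highest 4931406P16Rik at 100.2 CPM. The neutrophil list was highest at 1.68 CPM in WT replicate 4 and at 21.5 CPM in GFAP-IL6 replicate 3, the other 3 libraries of each group being at 0.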

How the results depend on the processing

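The count of 3 DEGs at 1 ng became 11 with the DESeq2 test and 9 without a filter on low counts. The gene of lowest p among those 9 was Ttr, which among WT libraries was high in replicate 3 only. The DEG count was 6 with a replicate block (adding C1qb, Lrg1 and Tmem176a) and 5 without both replicate 2 libraries. It was 2 to 4 when each library was left out in turn. Same-numbered WT and GFAP-IL6 libraries deviated together across genes with correlations of 0.00819 to 0.0473 at 1 ng. They were alike in other values. Replicate 2 had the lowest total in both genotypes (366403 and 261378 counts). Replicate 3 had the lowest mitochondrial share in both (11.1% in WT and 12.1% in GFAP-IL6). These correlations therefore cannot tell whether replicate numbers pair the genotypes. The 50 ng libraries thinned to the 1 ng totals gave a median of 16.5 DEGs. Interaction genes numbered 2 without a filter (Sh3pxd2a and Neu3), 0 with a replicate block, and 0 to 1 with a library left out (Arhgef26 without WT replicate 3, Dusp12 without WT replicate 4). The difference in detected genes ran from -188.5 to 644.25 and that in total counts from -248628 to 597669 with a library left out, so neither has a stable direction; the cause was not tested. Of the alternative values of single named genes, 379 kept their call, 17 gained it and 3 lost it, and none reversed. Of those of summed lists, 312 moved by less than the spread between libraries and 23 by more. For counting alone, 3 counts came to 1.07 to 2.41 CPM in 6 of the 1 ng libraries and to 8.19 and 11.5 CPM in the replicate 2 libraries.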
